A study of Mus musculus with 6 samples.

Results

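Bile acids are moved through the bile duct epithelium and sensed there by a small set of transporters, a binding protein, receptors and a hormone, and 10 genes of this set were examined: Slc10a2, Slc51a, Slc51b, Abcc2, Abcc3, Fabp6, Nr1h4, Nr0b2, Gpbar1 and Fgf15. They were chosen by name, and every non-control probe that the array files named after one of them was used, which gave 13 probes among the 56605 on the array. The tissue was common bile duct epithelium, and total RNA was taken from C57BL/6 mice of a line called iFGF10, in which Fgf10 was overexpressed per the series' design text. Of the 6 samples, 3 were from mice given 0.02% doxycycline in drinking water over 5 days (DOX+) and 3 from mice given plain water over 5 days (DOX-). Neither the promoter driving the construct nor the age of the mice is given in the sources used here. The DOX- samples are called untreated iFGF10 mice in one label and carry "WT" and a pair of numbers in another, so the labels do not settle whether the controls carried the construct or whether each was a pool of mice. No mice without the construct that drank doxycycline were analysed here, so the drug and the induced gene cannot be told apart.

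As background, bile duct cells (cholangiocytes) and ileal enterocytes share a route for conjugated bile acids. The apical sodium-dependent transporter SLC10A2 (ASBT) takes bile acids up from the lumen, FABP6 binds them in the cytosol, and the heterodimer of SLC51A and SLC51B (OSTα and OSTβ), together with ABCC3 (MRP3), exports them across the basolateral membrane. ABCC2 (MRP2) is an apical export pump. NR1H4 (FXR) is the nuclear bile acid receptor, which induces Nr0b2 (SHP), Slc51a, Slc51b, Fabp6 and Fgf15 in the ileum. GPBAR1 (TGR5) is the membrane receptor for bile acids, and FGF15 is the hormone by which the ileum lowers bile acid synthesis in the liver.

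The 60-base probes for uptake (Slc10a2), for both export subunits (Slc51a and Slc51b) and for the cytosolic carrier (Fabp6) are shown so that what the array reads of each step can be seen. Slc51a probe 1 is the dimmer of its pair, and the Slc51a values that stand for the gene come from probe 2. They are written 5′ to 3′ as the array files give them.
Slc10a2 probe: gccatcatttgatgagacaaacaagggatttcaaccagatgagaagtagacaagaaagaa
Slc51a probe 1: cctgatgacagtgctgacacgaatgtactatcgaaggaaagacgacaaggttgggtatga
Slc51b probe: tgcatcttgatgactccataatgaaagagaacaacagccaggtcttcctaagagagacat
Fabp6 probe: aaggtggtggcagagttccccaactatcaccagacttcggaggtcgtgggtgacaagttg
On the mm9 build used by the files, the Slc10a2 probe lies at chr8:5086145-5086204 (minus strand), Slc51a probe 1 at chr16:32475871-32475930 (minus strand), the Slc51b probe at chr9:65260705-65260764 (minus strand) and the Fabp6 probe at chr11:43410973-43411032 (minus strand). The G and C content of these probes was 38.3%, 46.7%, 41.7% and 55%, respectively. The place of the probes within exons or untranslated regions was not analysed here.

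Promoters of 8 of the 10 members were in the RefSeq table (GRCm38), and motifs of the bile acid receptor pathway were searched on both strands in the 250 bases before the start of all 32851 promoters. The inverted repeat bound by FXR (AGGTCANTGACCT) matched 2 promoters (0.00609%), none of a member. Its half-site (AGGTCA), which is part of that repeat and of the LRH-1 motif, matched 14% of promoters, among them those of Slc51a (58 to 53 bases before the start), Slc51b (203 to 198), Abcc2 (49 to 44) and Nr1h4 (214 to 209). The LRH-1 motif (CAAGGTCA) matched 1.33% of promoters and no member. These matches describe letters in the sequence only.

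Each array held 59305 non-control spots, of which 55.93% to 61.9% were well above background, and no spot was saturated. The 3 probes named Fgf10 were near background everywhere (well above it on 0 of 6 arrays), with levels between -7.41 and -5.55, so they give no check of the labels. Levels here and throughout are log2 processed intensity relative to the 75th percentile of the same array, and they are compared between arrays for a given probe, not between probes. The duct label was borne out by its markers: Krt19 lay between 6.91 and 7.88 on the arrays, and Krt7, Epcam and Cftr were well above background on all 6. RNA of other cells was present too, since the hepatocyte gene Alb lay at 2.07, 5.20 and 3.37 in DOX+ replicates 1 to 3 and at 5.25, 4.32 and 1.95 in DOX- replicates 1 to 3, and Col1a1, Acta2, Pecam1 and the macrophage gene Adgre1 were well above background on all arrays. The libraries differed widely in pancreatic acinar RNA: the mean level of 8 acinar genes was 3.13, 1.28 and 1.71 in DOX+ and -1.93, 1.90 and 3.82 in DOX-. All 8 were on average higher in DOX+, but without DOX- replicate 1, the lowest array, 7 of the 8 were lower. The part of acinar RNA in the member values was not tested. Nothing in the labels beyond the stated number of mice says that the samples came from separate animals, so a p-value here reflects only how these samples scatter.

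Of the 10 members, 7 were measured above background on all 6 arrays and entered the comparison of 20737 genes: Slc10a2, Slc51a, Abcc3, Fabp6, Nr1h4, Nr0b2 and Gpbar1. Slc51b, Abcc2 and Fgf15 did not pass the filter, which required a probe well above background on all 3 arrays of a group. In limma's fit over all genes, 8 genes (0.0386%) passed an adjusted p of 0.05, and 0 of the 7 tested members did. At an unadjusted p under 0.05, which 13.3% of all genes reached, 1 of the 7 members, Slc10a2, was found. The groups did not overlap for 1 of 7 members, again Slc10a2, against 21.0% of all genes, so the members' share is near the background. Of the tested members 3 were lower in DOX+ and 4 higher, with a median log2 difference of 0.01, beside -0.012 over all genes.

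**Figure D1:**
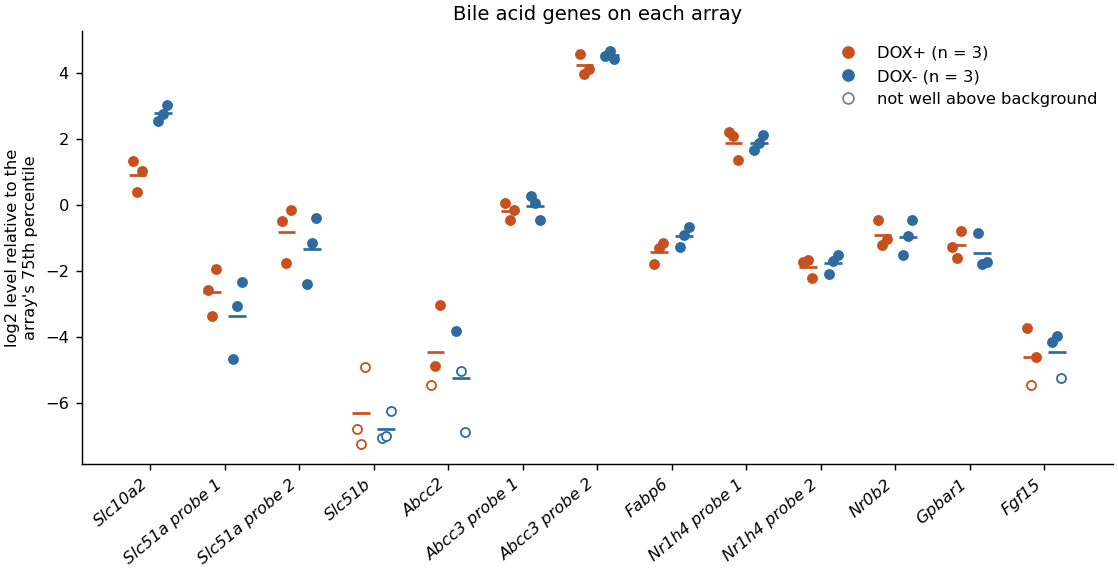
Log2 level (relative to the array's 75th percentile) of each of the 13 member probes on each of the 6 arrays, with DOX+ and DOX- in separate colours, bars at the group means and open circles for spots not well above background; heights may be compared within a probe only. The 3 DOX+ points lie below the 3 DOX- points for Slc10a2, and the groups overlap for the other 12 probes.

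Slc10a2, the apical uptake transporter, was 3.64-fold lower in the DOX+ samples. Its levels were 1.34, 0.39 and 1.02 in DOX+ replicates 1 to 3 and 2.56, 2.76 and 3.02 in DOX- replicates 1 to 3. All DOX+ arrays lay below all DOX- arrays, with a gap of 1.22 between the highest DOX+ and the lowest DOX- array. The processed intensities behind these levels were 1800.9, 1089.6 and 1840.3 in DOX+ and 4827.2, 6008.4 and 5385.3 in DOX-. The group means were 0.91 ± 0.48 (SD, n = 3) and 2.78 ± 0.23 (SD, n = 3). The log2 difference was -1.86 (SE 0.27, 95% interval -2.52 to -1.21), which is 3.64-fold lower with an interval of 2.31 to 5.73. It did not pass the threshold in limma's fit, with an adjusted p of 0.133 over all genes and an unadjusted p of 0.000396. The two-sided exact permutation p was 0.1, the smallest that 3 arrays against 3 allow. By unadjusted p, Slc10a2 was number 60 among the 20737 genes, and 106 genes (0.511%) had a difference at least as negative. Of all genes, 1.24% had all DOX+ arrays below all DOX- arrays and a difference of at least 2-fold.

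A second probe on the array carries an older symbol of Slc10a2, 9130221J18Rik, and lies 3′ of the first at chr8:5083366-5083425 (mm9, minus strand). It was looked up after the data were seen and is not among the 13 probes. It read 1.26, 0.39 and 1.37 in DOX+ and 2.36, 2.99 and 2.91 in DOX-. Here too all DOX+ arrays were below all DOX- arrays, and DOX+ replicate 2 was again the lowest. The log2 difference of the older-symbol probe was -1.75 (SE 0.31, limma adjusted p = 0.157 over all probes). Both probes were read on the same 6 arrays and are not independent samples.

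Leaving out each array in turn moved the Slc10a2 difference between -2.07 and -1.60. With arrays weighted by limma for their scatter, the difference was -1.91 and the adjusted p 0.0322, and over all alternatives the adjusted p ran from 0.0322 to 0.578. The weight of DOX- replicate 2 was 4.90 in that fit, the highest of the 6. On the slide, DOX- replicate 1 was in the same row as all 3 DOX+ arrays, and the other DOX- arrays were in the next. With slide row as a block, which compares the groups within that shared row only, the Slc10a2 difference was -1.64 (SE 0.39, limma adjusted p = 0.578).

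**Figure D2:**
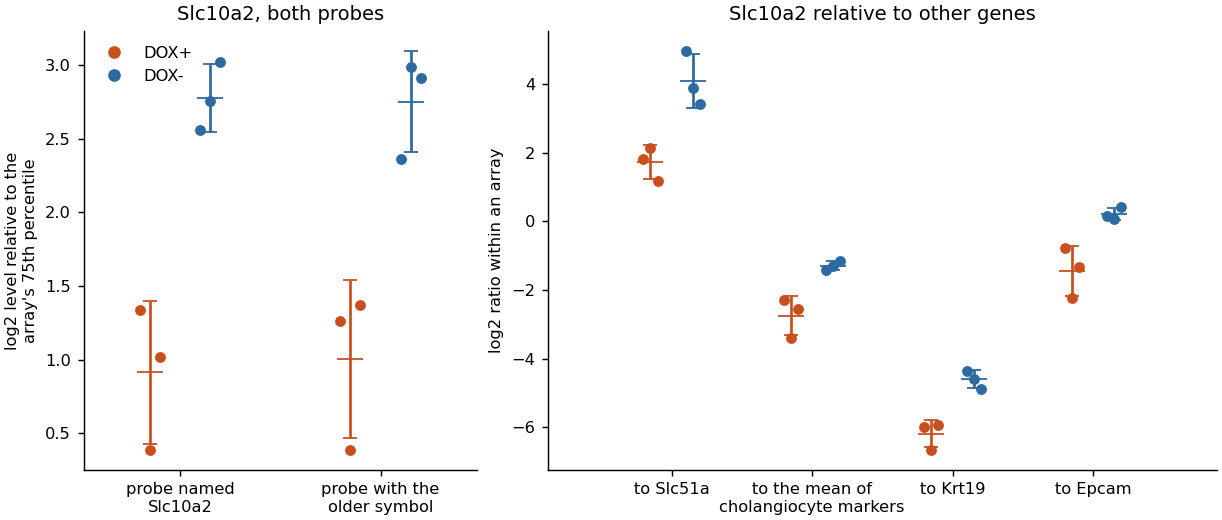
Left: log2 level of Slc10a2 on each array by the probe named Slc10a2 and by the older-symbol probe. Right: log2 ratio of Slc10a2 to Slc51a, to the mean of 13 cholangiocyte markers, to Krt19 and to Epcam on the same array; points are arrays, bars are means with SD (n = 3), and the DOX+ arrays lie below the DOX- arrays in every panel position.

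Most bile duct markers were lower in DOX+, as Slc10a2 was. Of 14 cholangiocyte markers 13 were tested, 11 were lower in DOX+, 0 passed the adjusted threshold and 4 were lower at an unadjusted p under 0.05, against 6.32% of all genes. The groups did not overlap for 6 of the 13, all lower in DOX+, against 10.9% of all genes. The mean level over the 13 markers ran from 3.57 to 3.78 in DOX+ and from 3.98 to 4.16 in DOX-, and no marker was without signal above background. Among them, Krt7, a keratin of duct cells, differed by -1.02 (limma adjusted p = 0.171), whereas Krt19 differed by -0.27 and Epcam by -0.21. The marker with the most negative difference, named after its value was seen, was the epithelial cadherin gene Cdh1, at -2.01 (limma adjusted p = 0.171). Relative to the mean of the 13 markers on the same array, Slc10a2 was at -2.28, -3.39 and -2.55 in DOX+ and at -1.42, -1.30 and -1.14 in DOX-. The groups did not overlap on this scale either, and the difference of the log2 ratio was -1.45 (exact permutation p = 0.1). Relative to Krt19 the difference was -1.59, and relative to Epcam it was -1.66. In bulk tissue, fewer cells that express a gene and less of its RNA per cell cannot be told apart.

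Enterocytes express Slc10a2, Fabp6, Slc51a and Slc51b as well, and most of their markers were higher in DOX+. Of 12 enterocyte markers 8 were tested, of which 6 were higher in DOX+, and their median difference was 1.23. None of the 8 passed the adjusted threshold in limma, and 3 were higher and 1 lower at an unadjusted p under 0.05, against 13.3% of all genes in either direction. Of the 3 higher, Slc5a1 and Apoa4 passed the filter only through DOX+, the group where they were higher. On DOX- arrays, Slc5a1 was well above background on 1 and Apoa4 on 2. Cdx1 passed only through DOX-, where it was higher, so these counts depend in part on the filter. The mean level over the 8 was -0.59, -0.78 and 1.30 in DOX+ and -1.23, -0.75 and -1.55 in DOX-, so DOX+ replicate 3 was the highest array. Without it the difference in this mean was 0.49, with 6 of the 8 still higher. Not every marker was highest there: Anpep read 2.42, 2.42 and 1.90 in DOX+ and 1.08, 0.63 and -0.05 in DOX-, Slc5a1 was higher on all DOX+ arrays (limma adjusted p = 0.133), Fabp1 was highest in DOX+ replicate 1, and Vil1 was lower in DOX+, at -0.71. Fabp2 was highest in DOX+ replicate 3, at 3.64, beside -1.73 to 0.23 on the other arrays, and the brush border genes Alpi, Lct and Sis, at 1.38, 0.06 and 0.92 there and too dim to be tested, were highest on the same array. These markers, apart from Fabp2, were named after their values were seen. Cdx2, an intestinal transcription factor, was well above background on 2 DOX+ arrays and 1 DOX- array. The part of enterocyte RNA in the member values was not tested.

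Export at the basolateral side did not differ past the threshold. Slc51a, the alpha subunit of the exporter, has a pair of probes. On the brighter, probe 2 (chr16:32475636-32475695, mm9), it read -0.49, -1.76 and -0.16 in DOX+ and -2.40, -1.14 and -0.40 in DOX-. The groups overlapped, the highest array was DOX+ replicate 3 and the lowest DOX- replicate 1. The log2 difference was 0.51 (SE 0.62, 95% interval -0.996 to 2.01, limma adjusted p = 0.755). Without DOX- replicate 1 it was -0.035, and with slide row as a block it was 1.60. That block leaves DOX- replicate 1 as the only control array, which also had the lowest mean of the 8 acinar genes (-1.93). The part of acinar RNA in the Slc51a values was not tested. Slc51a probe 1 read -2.56, -3.34 and -1.94 in DOX+ and -4.67, -3.05 and -2.32 in DOX-, with the same arrays highest and lowest and a difference of 0.73 (SE 0.64).

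Slc51b, the beta subunit without which the exporter does not reach the membrane, had no array well above background. Its levels were -6.77, -7.23 and -4.89 in DOX+ and -7.06, -7.00 and -6.24 in DOX-, so no fold is given. The highest of these was again DOX+ replicate 3.

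The ratio of Slc10a2 to Slc51a within an array does not depend on the scaling between arrays. It sets RNA of the uptake gene against that of 1 exporter subunit, leaves out Slc51b and Abcc3, and does not measure transport. This ratio was 1.83, 2.15 and 1.18 on the log2 scale in DOX+ and 4.96, 3.90 and 3.41 in DOX-. The groups did not overlap, and the difference was -2.37, which is a larger difference than that of Slc10a2 alone because Slc51a was on average higher in DOX+. The two-sided exact permutation p was 0.1, and leaving out each array gave differences from -2.71 to -1.94.

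Abcc3, the other basolateral exporter, also has a pair of probes. The brighter, probe 2 (chr11:94204612-94204671, mm9), read 4.59, 3.98 and 4.13 in DOX+ and 4.52, 4.67 and 4.42 in DOX-. DOX+ replicates 2 and 3 lay below the DOX- arrays and DOX+ replicate 1 among them. The log2 difference was -0.30 (SE 0.19, 95% interval -0.77 to 0.16, limma adjusted p = 0.526), so the interval excludes 2-fold changes in either direction. Abcc3 probe 1 (chr11:94225685-94225744) differed by -0.13 (SE 0.23), with overlapping groups.

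Abcc2, the apical export pump (probe at chr19:43912079-43912138, mm9), was well above background on DOX+ replicates 2 and 3 and on DOX- replicate 1. Its levels were -5.43, -4.88 and -3.03 in DOX+ and -3.80, -5.03 and -6.87 in DOX-. They spread over 2.40 within DOX+ and 3.08 within DOX-, more than the 0.79 between the means of -4.45 and -5.23, and no test was made.

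Fabp6, the cytosolic bile acid carrier, read -1.79, -1.30 and -1.15 in DOX+ and -1.26, -0.90 and -0.67 in DOX-. DOX- replicate 1 lay within the range of the DOX+ arrays, and the groups overlapped by 0.11. The log2 difference was -0.47 (SE 0.23, 95% interval -1.04 to 0.10), in the same direction as Slc10a2, with a limma adjusted p of 0.436 and an exact permutation p of 0.2. With slide row as a block the difference was -0.15.

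**Figure D3:**
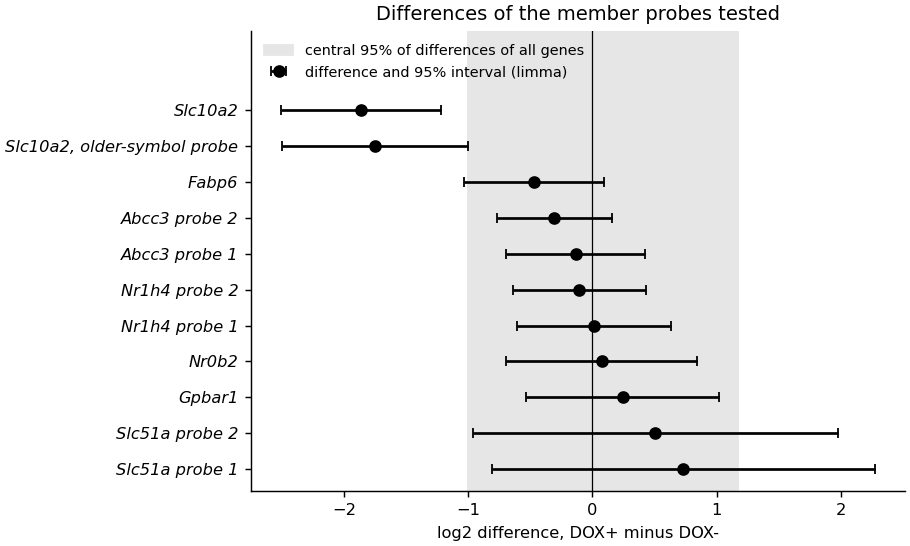
Log2 difference between DOX+ and DOX- with its 95% interval from limma for each member probe tested and for the older-symbol probe of Slc10a2; the shaded band, from -0.998 to 1.18, holds the central 95% of the differences of all genes. The intervals of both Slc10a2 probes lie below 0, and those of all other probes shown include 0.

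Bile acid sensing showed no difference past the threshold. Nr1h4, the gene of FXR, read 2.21, 2.10 and 1.37 in DOX+ and 1.66, 1.88 and 2.11 in DOX- on its brighter probe (probe 1, chr10:88917222-88917281, mm9). The groups overlapped, with DOX+ arrays both highest and lowest. The log2 difference was 0.01 (SE 0.26, 95% interval -0.62 to 0.64, limma adjusted p = 0.992). With slide row as a block it was 0.24. Nr1h4 probe 2 (chr10:88960160-88960219) gave -0.10 (SE 0.22).

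Nr0b2, the repressor that FXR induces (chr4:133109694-133109753, mm9), read -0.46, -1.21 and -1.03 in DOX+ and -1.52, -0.93 and -0.46 in DOX-. The groups covered nearly the same range, and the log2 difference was 0.07 (SE 0.32, 95% interval -0.71 to 0.86, limma adjusted p = 0.946). With slide row as a block, against DOX- replicate 1 alone, it was 0.62. The log2 ratio of Nr0b2 to Nr1h4 within an array was -2.67, -3.30 and -2.40 in DOX+ and -3.18, -2.82 and -2.57 in DOX-, a difference of 0.064 with overlapping groups (exact permutation p = 0.8). Nr0b2 and Nr1h4 are also expressed by hepatocytes, whose 10 tested markers had mean levels from -0.0097 to 2.05 in DOX+ and from 0.20 to 2.31 in DOX-, with 6 lower and 4 higher in DOX+. Without DOX+ replicate 1, or without DOX- replicate 1, 3 were lower and 7 higher. The mean of the 8 acinar genes was lowest on DOX- replicate 1 (-1.93), as Nr0b2 was. It was highest on DOX- replicate 3 (3.82) and DOX+ replicate 1 (3.13), where Nr0b2 read -0.46. This was looked for after the values were seen. The part of hepatocyte or acinar RNA in the Nr0b2 and Nr1h4 values was not tested.

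Gpbar1, the membrane receptor (chr1:74326104-74326163, mm9), read -1.26, -1.59 and -0.77 in DOX+ and -0.84, -1.78 and -1.72 in DOX-. DOX+ replicate 3 was the highest array and DOX- replicate 2 the lowest, and the groups overlapped. The log2 difference was 0.24 (SE 0.33, 95% interval -0.55 to 1.04, limma adjusted p = 0.782), and with slide row as a block it was -0.36. Macrophages express Gpbar1 too, and 10 macrophage markers had mean levels from 1.65 to 2.02 in DOX+ and from 1.09 to 2.22 in DOX-, with 6 higher and 4 lower, and 2 higher and 8 lower without DOX- replicate 3. Their part in the Gpbar1 value was not tested.

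Fgf15, the hormone gene that FXR induces in the ileum (chr7:152086371-152086430, mm9), was well above background on 4 of the 6 arrays, all but DOX+ replicate 2 and DOX- replicate 3. Its levels were -3.72, -5.43 and -4.61 in DOX+ and -4.14, -3.97 and -5.23 in DOX-. The means, -4.59 ± 0.85 and -4.44 ± 0.69 (SD, n = 3), differed by less than the spread within a group, and no test was made.

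Across the members, DOX+ replicate 3 was the highest of the 6 arrays for Slc51a on both probes, for Slc51b, for Abcc2 and for Gpbar1. Slc51b was not well above background there, and Abcc2 was too dim to be tested. How often this array was the highest over all genes was not counted, so the members' share cannot be judged. It also had the highest mean of the enterocyte markers, and a link between these was not tested. DOX+ replicate 3 was not the highest for Slc10a2, Fabp6, Abcc3, Nr1h4, Nr0b2 or Fgf15. Without DOX+ replicate 3 the Slc10a2 difference was -1.91, the Slc51a difference 0.19 and the Gpbar1 difference 0.024.

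**Figure D4:**
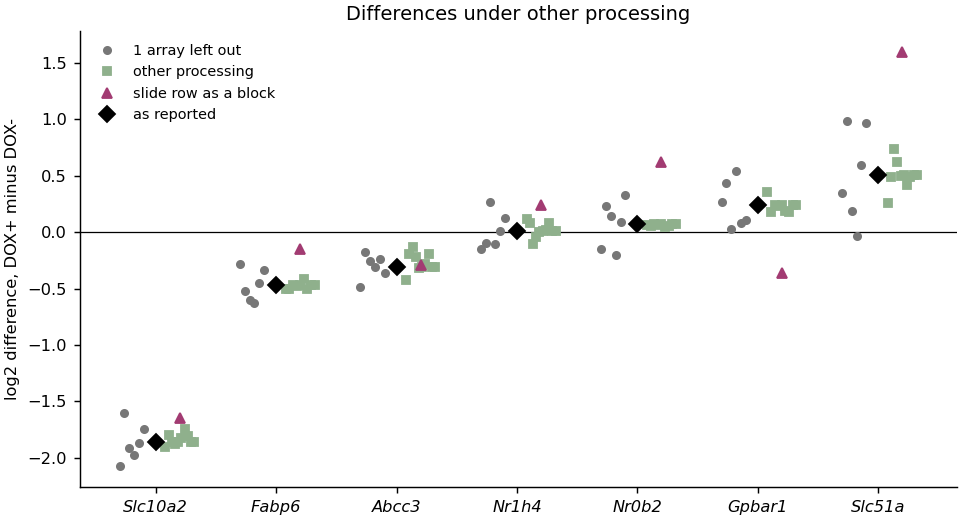
Log2 difference between DOX+ and DOX- for the 7 members tested, as reported (diamonds), with 1 array left out (circles), under other processing (squares) and with slide row as a block (triangles). The Slc10a2 values stay between -2.07 and -1.60, whereas values of Nr1h4, Nr0b2, Gpbar1 and Slc51a fall on both sides of 0.

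The wider bile acid pathway was described through 4 lists of 63 genes, of which 50 were tested. In limma's fit 0 of the 50 passed the adjusted threshold, 26 were lower and 24 higher in DOX+, and their median difference was -0.0033. At an unadjusted p under 0.05 there were 8 (16%), close to the 13.3% of all genes.

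Of 15 genes of bile acid synthesis and conjugation 11 were tested, with 4 lower and 7 higher in DOX+ and a median of 0.076. Cyp7a1, the rate-limiting enzyme of the classic pathway in the liver, had no array well above background, and nor had Cyp8b1, Akr1d1 and Baat. The smallest unadjusted p-values on this list were those of Cyp39a1, an oxysterol hydroxylase, at -0.51 (SE 0.17, limma adjusted p = 0.299), and of Slc27a2, an acyl-CoA synthetase, at 1.26 (SE 0.71, adjusted p = 0.486).

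Of 18 other transporters of bile acids and biliary lipids 14 were tested, with 9 lower and 5 higher and a median of -0.087. Abcg2, an apical efflux pump, differed by -0.78 (SE 0.27, limma adjusted p = 0.325) and Slco3a1, an organic anion transporter, by -0.68 (SE 0.27, adjusted p = 0.362). Slc10a1, the hepatocyte counterpart of Slc10a2, has a pair of probes that disagree: one lay between 8.26 and 8.58 on all arrays, and the other between -5.37 and -1.60. Their differences were -0.013 (SE 0.15) and -0.85 (SE 1.04), and the brighter probe places Slc10a1 among the 9 lower. Which of the probes reads the Slc10a1 transcript was not tested, so no Slc10a1 difference can be read from them. Abcb11, the canalicular bile salt pump of hepatocytes, read -4.81, -2.99 and -3.13 in DOX+ and -0.94, -2.23 and -3.74 in DOX-, a difference of -1.34 with overlapping groups (SE 0.81, limma adjusted p = 0.511).

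Of 20 further sensors and partners 18 were tested, with 8 lower and 10 higher and a median of 0.10. Nr5a2 (LRH-1), which acts on bile acid genes together with NR0B2, differed by -0.36 (limma adjusted p = 0.507). Rxra, the partner of FXR, differed by 0.11 on its brighter probe (limma adjusted p = 0.742). The dimmer Rxra probe, well above background on all 6 arrays, gave 0.66 (SE 0.18, limma adjusted p = 0.256 over all probes). On that probe all DOX+ arrays were above all DOX- arrays, a pattern found in 10.1% of genes. Gata4, a repressor of Slc10a2 in the proximal intestine, was well above background on 3 DOX+ arrays and 2 DOX- arrays, so it passed the filter only through DOX+. It differed by 0.27 (SE 0.72, limma adjusted p = 0.902), with overlapping groups and the highest level, -2.43, in DOX- replicate 1. The other Gata4 probe was well above background on 0 arrays.

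The receptor of FGF15 and its co-receptor belong to the same list. Fgfr4 read 0.88, 1.60 and 0.37 in DOX+ and -0.04, -0.50 and -0.59 in DOX-. All DOX+ arrays were above all DOX- arrays, as held for 10.1% of genes in that direction. The Fgfr4 difference was 1.33 (SE 0.33, limma adjusted p = 0.232), and its other probes gave 1.09 and 1.60. Klb, the co-receptor, was well above background on 3 DOX+ arrays and 1 DOX- array and differed by 0.90 (limma adjusted p = 0.348). It passed the filter only through DOX+, the group where it was higher. Its DOX- levels, -4.75, -5.04 and -4.94, were near background, so its place in the test depends on the filter. The other Klb probe was well above background on 0 of 6 arrays. Ppargc1a, a coactivator of nuclear receptors, differed by 0.59 (SE 0.19, limma adjusted p = 0.298).

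Of 10 genes of bile acid detoxification 7 were tested, with 5 lower and 2 higher and a median of -0.12. Gstm1, a glutathione transferase, differed by 0.98 (SE 0.20, limma adjusted p = 0.188) and Papss2, which makes the sulfate donor, by 0.61 (SE 0.27, limma adjusted p = 0.391).

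**Figure D5:**
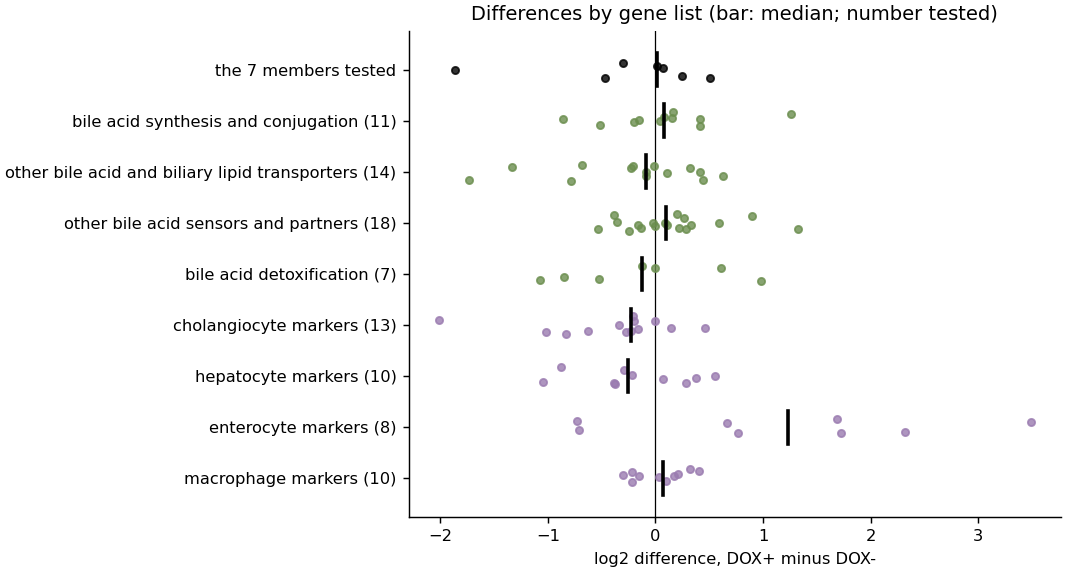
Log2 difference between DOX+ and DOX- of each gene tested among the 7 members, the 4 pathway lists and 4 marker lists, with a bar at the median and the number tested in parentheses. Slc10a2, at -1.86, is the leftmost member, and the medians of the members and of the 4 pathway lists lie between -0.12 and 0.10.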

How the data were processed

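Per the file headers, the authors' scanner files hold spot intensity from Agilent Feature Extraction 10.7.1.1 (9.5.1.1 per the submitters' processing notes), background-subtracted and detrended within 1-colour Cy3 arrays, together with raw mean and background intensity and 0 or 1 flags. A deposited table of the authors' processed intensity served as an alternative. Each array's log2 intensity was set relative to its own 75th percentile, and outlier spots were left out (50 to 64 per array). The 75th percentile lay between 666.16 and 910.07. Probes well above background on all 3 arrays of a group were kept (31719 of 56605), and the brightest stood for its gene. Names came from the files for the members and, where it matched, from the RefSeq gene table (GRCm38.p6) elsewhere. Over all probes, names matched by accession (32994 probes), current symbol (10224) or older symbol (519), and 12868 probes kept the name in the files. DOX+ was tested against DOX- in limma 3.58.1 (R 4.3.3), two-sided with Benjamini-Hochberg adjustment over 20737 genes and a threshold of 0.05. On simulated data with 200 changed genes, the test recovered 21.2% of 2-fold, 74.5% of 4-fold and 88.3% of 8-fold changes. Of its calls there, 4.9% were false. The simulated arrays had equal scatter, whereas the weights of the real arrays ran from 0.39 to 4.90. A member that did not pass may thus still differ by 2-fold. With 3 arrays per group, the median SE of a log2 difference was 0.19, and the number of arrays limits the precision. All arrays were on 1 slide.

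Named beside the members were, per pathway list, the 2 genes with the smallest p among those well above background on all arrays, plus partners and markers fixed by name. Slc10a2 relative to bile duct markers and the older-symbol probe were chosen after seeing the data. The members and lists were chosen with earlier results of these data known. Further marker lists gave, for DOX+, 4 of 6 fibroblast genes lower, 3 of 6 smooth muscle genes lower (0 of 6 without DOX- replicate 1, 5 of 6 without DOX- replicate 2) and 6 of 6 endothelial genes higher, with 0 past the adjusted threshold in limma. Of the endothelial genes, 4 were higher at an unadjusted p under 0.05 (13.3% of all genes in either direction), and 4 had all DOX+ arrays above all DOX- arrays (10.1% of all genes). The values of some regulators on the lists are not reported here.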

Additional observations from a re-analysis of the deposited data

How the results depend on the processing

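In limma's fit, the number of genes past the adjusted threshold, 8, was 377 with array weights, 5 with probes well above background on all arrays, 2 with the authors' processed values, 2 with quantile normalisation and 1 with no filter, and 0 to 9 with each array left out. With each of the 31719 kept probes tested on its own, 18 probes passed. The gene count was 0 without DOX- replicate 2 (1542 genes at an unadjusted p under 0.05) and 1 without DOX+ replicate 1. With the replicate block it was 0 (2258 at an unadjusted p under 0.05). Whether the replicate numbers pair the samples is not known. The correlations of deviations from the group means were -0.0867, -0.131 and -0.0201 between same-numbered arrays. Between differently numbered arrays they ran from -0.129 to 0.22. With 3 arrays per group they cannot settle the pairing. The Slc10a2 adjusted p was 0.274 with that block. With slide row as a block the count was 0 (1410 at an unadjusted p under 0.05). The count of members past the threshold, 0, was 1 (Slc10a2) with array weights, and stayed at 0 with each array left out. Slc10a2 kept its direction in 17 of 17 alternatives, Fabp6 in 16 of 16 and Abcc3 in 17 of 17. Some of these left the difference itself unchanged. For all of these genes they were no filter, probes well above background on all arrays, and the replicate block. For Slc10a2 and Fabp6 the mean of probes did so too. The Slc10a2 count includes the older-symbol probe, which was looked up after the data were seen.

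Members with a difference near 0 changed sign. Nr1h4 was -0.10 by its other probe, -0.047 as the mean of probes, -0.00055 with median scaling and -0.15 to 0.27 with each array left out. Nr0b2 was -0.20 to 0.33 and Slc51a -0.035 to 0.99 with each array left out, and Gpbar1 was -0.36 with slide row as a block, which moved Nr0b2 to 0.62 and Nr1h4 to 0.24. The values with that block rest on DOX- replicate 1 as the only control array. The ratio of Nr0b2 to Nr1h4 was -0.029 with the authors' values and -0.13 to 0.32 with each array left out. The cause of the other changes of sign was not tested. Ratios to Slc51b and between Abcc2 and Abcc3 were not made, as Slc51b and Abcc2 were not well above background on all arrays.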
